A study of Mus musculus with 20 samples.

Results

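Adipoq, Lep, Retn, Plin1, Plin4, Cidec, Lipe, Pck1, Fabp4 and Pparg are 10 genes of fat cells, which encode hormones, lipid droplet proteins, metabolic enzymes, a fatty acid carrier and a transcription factor. They were chosen by name as adipocyte and adipokine genes, and each was read from the array row that the platform annotation gives its symbol. All 10 had a row of their own among the 19504 named genes measured. No sample was labelled as fat tissue or as isolated adipocytes. The levels thus describe transcripts of these genes inside tumors and in cell fractions made from them, whichever cells they came from.

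Arrays of 20 samples from UVB-induced mouse melanomas were compared, of 2 genotypes and 3 compartments. There were 3 B;p38α and 3 B arrays of CD45+ cells (labelled as immune), 3 B;p38α and 3 B arrays of CD45- cells (labelled as tumor and stroma), and 3 B;p38α and 5 B arrays of complete tumors. B;p38α mice carried Tyr::CreERT2, BrafCA/CA and p38αlox/lox, and B mice carried Tyr::CreERT2 and BrafCA/CA. All of them received 4-hydroxytamoxifen on the skin (5 mg/ml) on postnatal days 2.5 and 3.5 and 6.24 kJ/m² of UVB on day 3.5, and tumors were taken at endpoint size, with no age given. The Tyr promoter is active in melanocytes. By design, BrafV600E is thus switched on there in both genotypes, and p38α is deleted there in B;p38α and not in fat cells. In which cells the deletion took place was not measured here. CD45+ and CD45- cells came from dissociated tumors by magnetic CD45 selection. The titles call the replicates biological without naming the animals, so a p-value here reflects the variation among these arrays, which may be technical in part.

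White adipocytes store triglyceride in a single large lipid droplet coated by perilipins and release it as fatty acids through lipolysis. They also secrete hormones, the adipokines, which signal on energy stores and insulin sensitivity to other tissues. Skin has its own layer of fat cells under the dermis, next to a thin sheet of skeletal muscle, and several genes of the adipocyte program, Fabp4 and Pparg among them, are also used by macrophages and by capillary endothelium.

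Values are log2 expression values from RMA, so differences are log2 fold changes, and levels of different genes are not on a common scale. Array medians over named genes lay between 6.75 and 7.02. B CD45- replicate 1 was the narrowest array: the middle 50% of its genes spanned 2.95 log2 units, and those of the other arrays 3.41 to 3.88. The mean level of 8 pan-leukocyte genes was 10.66 to 11.34 in B;p38α and 11.12 to 11.32 in B CD45+ arrays, and 6.19 to 8.41 in B;p38α and 8.91 to 9.24 in B CD45- arrays. The CD45- arrays, those of B above all, thus still carried leukocyte transcripts. The mean of 10 fibroblast genes was 9.77 to 10.47 in the CD45+ arrays of both genotypes, against 10.25 to 11.66 in the CD45- arrays. The CD45+ arrays thus carried transcripts of fibroblast genes as well. Which cells gave rise to the other transcripts in CD45+ arrays was not tested. The mean of 10 melanocyte genes lay between 5.39 and 7.39 in the 20 arrays, near or below most array medians. Mapk14, which encodes p38α, differed by -0.18 (CD45+), -0.16 (CD45-) and -0.27 log2 units (complete) between B;p38α and B samples, with limma adjusted p of 0.672, 0.803 and 0.807. The labels do not say whether its probes lie in the deleted exons.

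The first comparison asked how the adipokines and other adipocyte genes differed between complete B;p38α and B tumors. All 10 had a lower mean in B;p38α tumors, with a median difference of -1.04 log2 units against -0.01 over all genes, where 51.8% of genes lay below 0. The adipokines and Cidec had the widest gaps, and Plin4 the narrowest. At a limma adjusted p under 0.05 over all genes 0 of the 10 passed, against 0% of the 19504 genes tested, while at an unadjusted p under 0.05 limma gave 555 genes higher and 734 lower in B;p38α tumors.

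Adipoq encodes adiponectin, the most abundant hormone of fat cells, which raises insulin sensitivity. Its level was 6.65, 5.46 and 6.62 in the B;p38α tumors, against 9.15, 10.08, 6.19, 9.54 and 7.38 in the B tumors. B replicates 1, 2 and 4 stood far above every B;p38α tumor, while B replicate 3 lay inside their range, so the groups overlapped. The difference was -2.23 log2 units (SE 0.80, limma adjusted p = 0.733). Retn encodes resistin, an adipokine that in mice opposes insulin action. Retn stood at 6.43, 5.46 and 6.35 in B;p38α tumors and at 8.03, 9.64, 5.73, 8.85 and 7.17 in B tumors. The 8 tumors had the same order as for Adipoq, with B replicate 3 again among the B;p38α values. The difference was -1.80 (SE 0.73, limma adjusted p = 0.742). Lep encodes leptin, the hormone that reports fat stores to the brain. Lep was at 3.13, 3.87 and 4.04 in B;p38α tumors, against 6.68, 5.90, 3.83, 6.07 and 4.44 in B tumors. Its values in the B;p38α tumors and in B replicates 3 and 5 lay in or below the range of the sorted cells, 3.24 to 4.62. The difference was -1.70 (SE 0.59, limma adjusted p = 0.728).

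Among lipid droplet proteins, Cidec makes large droplets by fusing small ones. Cidec had 6.08, 4.83 and 6.42 in B;p38α tumors and 8.38, 9.35, 5.21, 8.50 and 6.95 in B tumors. The same 3 B tumors were highest, and B replicate 3 fell below 2 of the B;p38α tumors. The difference was -1.91 (SE 0.81, limma adjusted p = 0.742). Plin1 encodes perilipin 1, which coats the droplet and gates lipolysis. Plin1 was at 5.54, 5.48 and 4.77 in B;p38α tumors, against 5.80, 7.38, 5.22, 7.01 and 4.99 in B tumors. Here B replicates 2 and 4 stood well clear of the B;p38α tumors, B replicate 1 lay just above them and the other B tumors overlapped them (difference -0.82, SE 0.53, limma adjusted p = 0.841). Plin4, a perilipin of small nascent droplets, had 6.66, 5.98 and 6.47 in B;p38α tumors and 6.92, 7.14, 6.18, 7.31 and 6.20 in B tumors. Its groups overlapped and the difference was -0.38 (SE 0.30, limma adjusted p = 0.862).

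Pck1 encodes the cytosolic phosphoenolpyruvate carboxykinase, which in fat cells supplies glycerol for triglyceride. Pck1 was at 4.66, 4.44 and 4.68 in B;p38α tumors, against 6.20, 6.42, 5.00, 5.41 and 5.09 in B tumors. It alone of the 10 had every B;p38α tumor below every B tumor, an arrangement that 2.54% of all genes showed. The difference was -1.03 (SE 0.33, 95% interval -1.77 to -0.30, limma adjusted p = 0.716). Lipe encodes hormone-sensitive lipase, which splits diacylglycerol during lipolysis. Lipe had 7.0, 6.29 and 6.43 in B;p38α tumors and 7.45, 7.82, 7.02, 6.77 and 7.39 in B tumors. Only B replicate 4 fell inside the B;p38α range (difference -0.72, SE 0.26, limma adjusted p = 0.733).

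Fabp4 encodes the fatty acid carrier of adipocytes, and Pparg the nuclear receptor that drives adipocyte differentiation. Fabp4 was at 9.04, 10.58 and 11.73 in B;p38α tumors, against 11.90, 11.94, 10.38, 11.90 and 11.38 in B tumors. Pparg was at 6.41, 7.31 and 7.92 in B;p38α tumors, against 7.76, 8.22, 7.11, 8.21 and 8.52 in B tumors. For both, B;p38α replicate 1 was the lowest tumor and the other 2 overlapped the B range. The differences were -1.05 for Fabp4 (SE 0.56, limma adjusted p = 0.78) and -0.75 for Pparg (SE 0.38, limma adjusted p = 0.778).

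For all 10 genes the range among the complete B tumors exceeded the difference between the genotype means. From the lowest to the highest B tumor, Cidec spanned 4.14 log2 units (17.6-fold), Retn 3.91 log2 units and Adipoq 3.89 (14.9-fold). Lep spanned 2.85 log2 units among B tumors (7.19-fold) and Plin1 2.39 (5.23-fold), and the other 5 genes between 1.05 for Lipe and 1.57 for Fabp4. B replicates 1, 2 and 4 were the 3 highest of the 8 complete tumors for 8 of the 10 genes. The exceptions were Lipe and Pparg, for which B replicate 5 was among the top 3. The 3 highest tumors were all B for every one of the 10. How many of all genes share these orders was not counted. The 10 genes are not independent of each other, and the 3 replicates were picked from these same values. Averaged over the 10 genes, the level was 6.16, 5.97 and 6.54 in B;p38α tumors, against 7.83, 8.39, 6.19, 7.96 and 6.95 in B tumors. B replicate 3 thus lay inside the range of the other genotype.

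**Figure D1:**
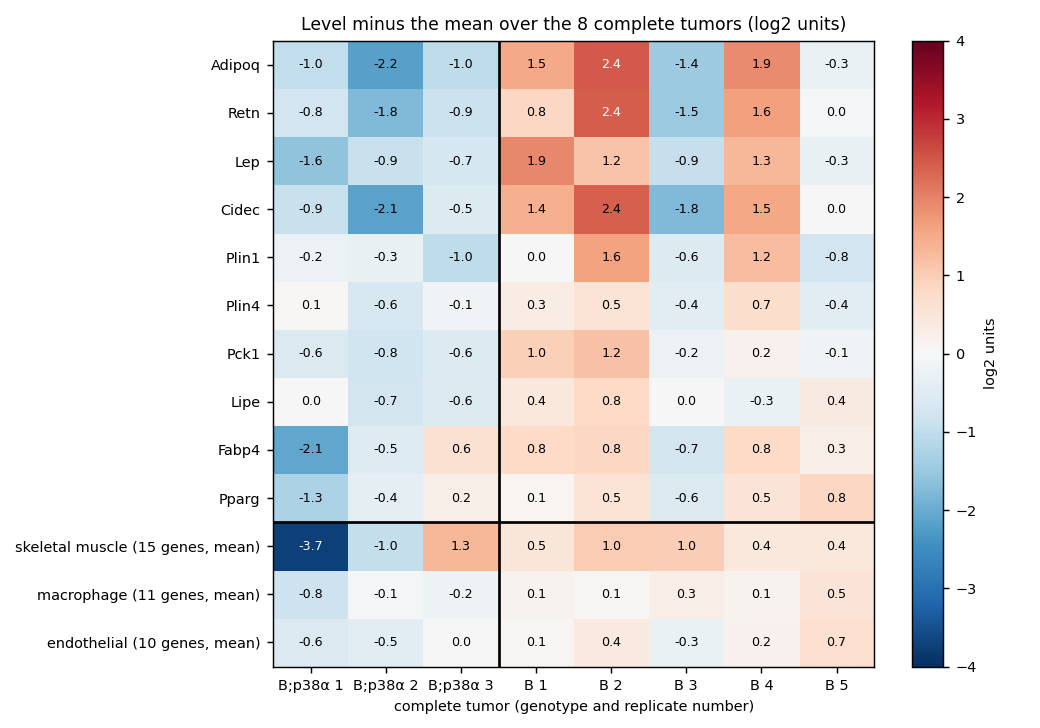
Each cell is the log2 level of a gene (or the mean level of a marker list, below the horizontal line) in 1 complete tumor minus its mean over the 8 complete tumors. Columns are the 3 B;p38α tumors, then the 5 B tumors. B replicates 1, 2 and 4 are above the mean for Adipoq, Retn, Lep and Cidec, B replicate 3 is below it, and the skeletal muscle list is high in B;p38α replicate 3 and B replicate 3, where those 4 genes are below their means.

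Other tissue markers moved in part with these genes. The mean of 15 skeletal muscle genes was 5.67, 8.44 and 10.72 in B;p38α tumors and 9.87, 10.42, 10.39, 9.82 and 9.83 in B tumors. B replicate 3 and B;p38α replicate 3 had low adipokine levels beside high muscle levels, so the 2 sets did not run in parallel from tumor to tumor. The mean of 11 macrophage genes was 9.14 to 9.91 in B;p38α and 10.03 to 10.50 in B tumors, and the mean of 10 endothelial genes was 7.78 to 8.35 in B;p38α and 8.07 to 9.03 in B tumors. Both lists were lowest in B;p38α replicate 1, the tumor lowest in Fabp4 and Pparg, and their part in those values was not tested. The mean of 10 fibroblast genes was 10.41 to 10.95 in B;p38α and 11.07 to 11.37 in B tumors, and that of 7 adipocyte progenitor genes was 7.09 to 7.41 in B;p38α and 7.55 to 8.18 in B tumors. On both lists, as on the macrophage list, the genotypes did not overlap, and their part in the adipocyte gene values was not tested. Keratinocyte genes averaged 7.37 in B replicate 1 against 4.71 to 5.69 in the other 7 complete tumors. The mean of 3 Y-linked genes was 8.93 and 9.29 in B replicates 1 and 4, against 2.76 to 3.85 in the other 6 complete tumors. With that mean as a covariate the Adipoq difference between B;p38α and B tumors was -1.65 (limma adjusted p = 0.59). Fewer fat cells and less RNA per fat cell cannot be told apart in bulk tumors.

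Over the 8 complete tumors, the genes whose level followed Adipoq most closely of all 19504 were 2 of the others, Cidec (Pearson r = 0.988) and Retn (r = 0.986). Without B replicates 2 and 4, the tumors farthest from the Adipoq median, both had r = 0.978. Plin4 (r = 0.905), Pck1 (0.903), Lep (0.894) and Plin1 (0.812) followed less closely, and for Plin1 the value was 0.356 without those tumors. Lipe (0.674), Fabp4 (0.665) and Pparg (0.579) followed Adipoq least. These values describe 8 tumors of both genotypes whose arrays share 1 RMA table. The nearest genes outside the 10 were Sec1 (r = 0.971), Pramel30 (0.953), the chemokine receptor gene Cxcr1 (0.952), Dgat2 (0.95), Serpina5 (0.946), Olfr1445 (0.943), Hp (0.942) and H2bfm (0.941). Some of these were dim and varied little. Pramel30 had 3.15 to 3.24 in B;p38α and 3.08 to 3.81 in B tumors. H2bfm had 3.26 to 3.28 and 3.12 to 3.73, and Cxcr1 4.31 to 4.55 and 4.33 to 4.98. All of these values lie under the 30th percentile of gene means (5.325), where arrays resolve differences least. Dgat2 catalyses the last step of triglyceride synthesis, and Hp encodes the hemoglobin-binding protein haptoglobin, which liver and fat secrete. Hp had 6.78 to 9.33 in B;p38α tumors and 8.10 to 11.07 in B tumors. Ranked over all 20 arrays, where complete and sorted samples lie apart and no r is given, the nearest genes outside the 10 were Cdo1, Pnpla3, Car3, Mup2, Mup9, Gpd1, Mup22 and Hp. Probes may not separate the Mup genes, which are close copies of each other.

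Promoters of 5 of the genes (the adipokine genes, Cidec and Plin1) are printed to show what they share and do not share in the 250 bases before the start of transcription. They are from RefSeq, build GRCm38.p6, each read 5′ to 3′ on the strand of its gene, and 9 of the 10 genes matched, with 13 promoters in all. Capitals mark matches to TTGCNNAA, the core of the sites bound by C/EBP factors, which act with PPARG in adipocyte differentiation.
Adipoq (chr16:23146286-23146535, + strand): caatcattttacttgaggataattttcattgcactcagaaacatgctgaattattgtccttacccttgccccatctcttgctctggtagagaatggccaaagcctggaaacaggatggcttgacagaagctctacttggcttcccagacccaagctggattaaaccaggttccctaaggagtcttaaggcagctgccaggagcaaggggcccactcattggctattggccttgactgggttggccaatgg
Retn (chr8:3655520-3655769, + strand): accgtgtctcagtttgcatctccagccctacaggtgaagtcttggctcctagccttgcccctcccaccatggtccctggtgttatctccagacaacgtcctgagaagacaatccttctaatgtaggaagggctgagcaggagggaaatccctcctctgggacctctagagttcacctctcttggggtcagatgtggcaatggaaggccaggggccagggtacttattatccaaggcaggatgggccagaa
Cidec (chr6:113434765-113435014, - strand): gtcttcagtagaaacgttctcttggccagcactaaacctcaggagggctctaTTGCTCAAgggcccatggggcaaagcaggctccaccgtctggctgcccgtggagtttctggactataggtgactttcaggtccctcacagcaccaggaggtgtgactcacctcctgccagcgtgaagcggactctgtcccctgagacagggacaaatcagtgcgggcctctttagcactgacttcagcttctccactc
Lep (chr6:29059971-29060220, + strand): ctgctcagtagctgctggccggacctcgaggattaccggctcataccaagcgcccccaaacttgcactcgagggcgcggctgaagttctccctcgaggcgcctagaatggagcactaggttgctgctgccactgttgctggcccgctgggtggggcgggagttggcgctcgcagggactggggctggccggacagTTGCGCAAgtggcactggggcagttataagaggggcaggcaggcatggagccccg
Plin1 (chr7:79732777-79733026, - strand): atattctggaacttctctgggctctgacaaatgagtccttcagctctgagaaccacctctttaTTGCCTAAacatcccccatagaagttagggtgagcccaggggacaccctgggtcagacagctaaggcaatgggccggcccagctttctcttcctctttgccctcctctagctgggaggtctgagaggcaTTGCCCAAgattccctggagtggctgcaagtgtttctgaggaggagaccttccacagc

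The Lep promoter held TTGCGCAA beginning 55 bases before the start, the printed Cidec promoter held TTGCTCAA at 198 bases (the other of its 2 RefSeq promoters had no match), and Plin1 held TTGCCTAA at 187 and TTGCCCAA at 58 bases. A match to TTGCNNAA on either strand stood in 4 of the 13 promoters (those of Cidec, Lep, Plin1 and Pparg), against 9.56% of 32851 RefSeq promoters of the same length. Adipoq and Retn, which followed each other most closely with Cidec, had no match in these windows. Plin4 and Pck1, which are not printed, had none either. Whether these matches bear on the levels was not tested. The nuclear receptor site AGGTCA on either strand was found in 2 of the 13, both of Pparg, against 14.02% of all promoters. Its direct repeat AGGTCANAGGTCA was in 0 of the 13 and in 0.033% of all, and TATAAA on the strand of the gene in 0 of the 13 and in 7.59% of all. These are matches of letters and not measured binding sites.

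Sorted cells differed from complete tumors for 7 of the 10 genes in B CD45+ cells, 3 in B CD45- cells, 1 in B;p38α CD45+ cells and 0 in B;p38α CD45- cells. All groups shared an estimate of the spread, though the Adipoq SD was 1.63 in complete B and 0.68 in complete B;p38α tumors. With only the compared groups in the fit, Adipoq passed in B;p38α CD45+ cells (limma adjusted p = 0.0111). It did not pass in B CD45- cells under that setting (limma adjusted p = 0.118). The counts thus do not compare the genotypes. In CD45+ cells of B tumors, Adipoq, Lep, Retn, Plin1, Cidec and Pck1 fell and Lipe rose relative to complete B tumors, by limma adjusted p under 0.05. That is 6 of 10 lower and 1 of 10 higher, where 8.49% of all genes were lower and 8.6% higher. In CD45- cells of B tumors, Adipoq, Retn and Cidec fell, 3 of 10 against 2.74% of all genes, and 0 rose against 2.05% of all genes. All 10 had a lower mean in B CD45- cells than in complete B tumors (49.9% of all genes did), with a median difference of -1.32 against 0.001 over all genes.

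Adipoq was at 5.49, 5.28 and 4.98 in B CD45+ cells and at 4.86, 5.69 and 5.44 in B CD45- cells, all below the lowest complete B tumor (6.19). Of the 10 genes, 6 lay below every complete B tumor in all B CD45+ arrays (12.6% of all genes did), and 3, Adipoq, Plin4 and Pck1, in all B CD45- arrays (6.63% of all genes did). The differences from complete B tumors were -3.22 in CD45+ cells (SE 0.63, limma adjusted p = 0.00207) and -3.14 in CD45- cells (SE 0.63, limma adjusted p = 0.0134). In B;p38α samples Adipoq was at 3.94, 3.90 and 4.52 in CD45+ cells and at 4.53, 5.19 and 4.33 in CD45- cells, again below every complete B;p38α tumor. In B;p38α, 2 of 10 genes lay wholly below the complete tumors in CD45+ cells (Adipoq and Plin1, against 16.1% of all genes) and 2 in CD45- cells (Adipoq and Retn, against 10.7% of all genes). Those differences were -2.12 (SE 0.70, limma adjusted p = 0.0598) and -1.56 (SE 0.70, limma adjusted p = 0.229). Retn was at 5.30, 4.72 and 4.42 in B CD45+ cells and 4.61, 6.05 and 5.08 in B CD45- cells. In CD45+ cells all 3 values lay below every complete B tumor, and in CD45- cells replicate 2 overlapped complete B replicate 3. The differences were -3.07 in CD45+ (SE 0.61, limma adjusted p = 0.00236) and -2.63 in CD45- cells (SE 0.61, limma adjusted p = 0.0249). In B;p38α samples Retn had 4.71 to 5.67 in CD45+ and 4.63 to 5.24 in CD45- cells, with differences of -0.83 and -1.12 from complete B;p38α tumors (limma adjusted p = 0.525 and 0.395).

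Cidec was at 4.76, 5.04 and 4.72 in B CD45+ cells and 4.54, 5.23 and 4.71 in B CD45- cells. Against complete B tumors the differences were -2.84 in CD45+ (SE 0.63, limma adjusted p = 0.00509) and -2.85 in CD45- cells (SE 0.63, limma adjusted p = 0.0197). Cidec showed no order among the sorted groups: B;p38α CD45+ cells had 4.21 to 4.92 and B;p38α CD45- cells 4.43 to 4.97. Their differences from complete B;p38α tumors were -1.30 and -1.08 (limma adjusted p = 0.279 and 0.436). Lep was at 3.81, 3.65 and 3.71 in B CD45+ cells, below every complete B tumor, with a difference of -1.66 (SE 0.50, limma adjusted p = 0.0306). In B CD45- cells Lep had 4.04, 4.41 and 3.24, which overlapped the complete B tumors, and a difference of -1.49 (SE 0.50, limma adjusted p = 0.0903). In B;p38α samples, where complete tumors were already low, Lep differed by 0.35 in CD45+ and 0.43 in CD45- cells (limma adjusted p = 0.791 and 0.751).

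Plin1 was at 4.69, 4.83 and 4.91 in B CD45+ cells, below every complete B tumor, with a difference of -1.27 (SE 0.40, limma adjusted p = 0.0377). In B CD45- cells Plin1 had 5.16, 5.02 and 4.94 and differed by -1.04 (SE 0.40, limma adjusted p = 0.132). Pck1 had 4.70, 4.27 and 4.54 in B CD45+ cells, a difference of -1.12 from complete B tumors (SE 0.30, limma adjusted p = 0.0153). Its B CD45- values of 4.61, 4.49 and 4.90 were also below every complete B tumor, with a difference of -0.96 that did not pass (SE 0.30, limma adjusted p = 0.0694). For Plin4 the differences from complete B tumors were -0.73 in CD45+ and -0.68 in CD45- cells (limma adjusted p = 0.0595 and 0.122).

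**Figure D2:**
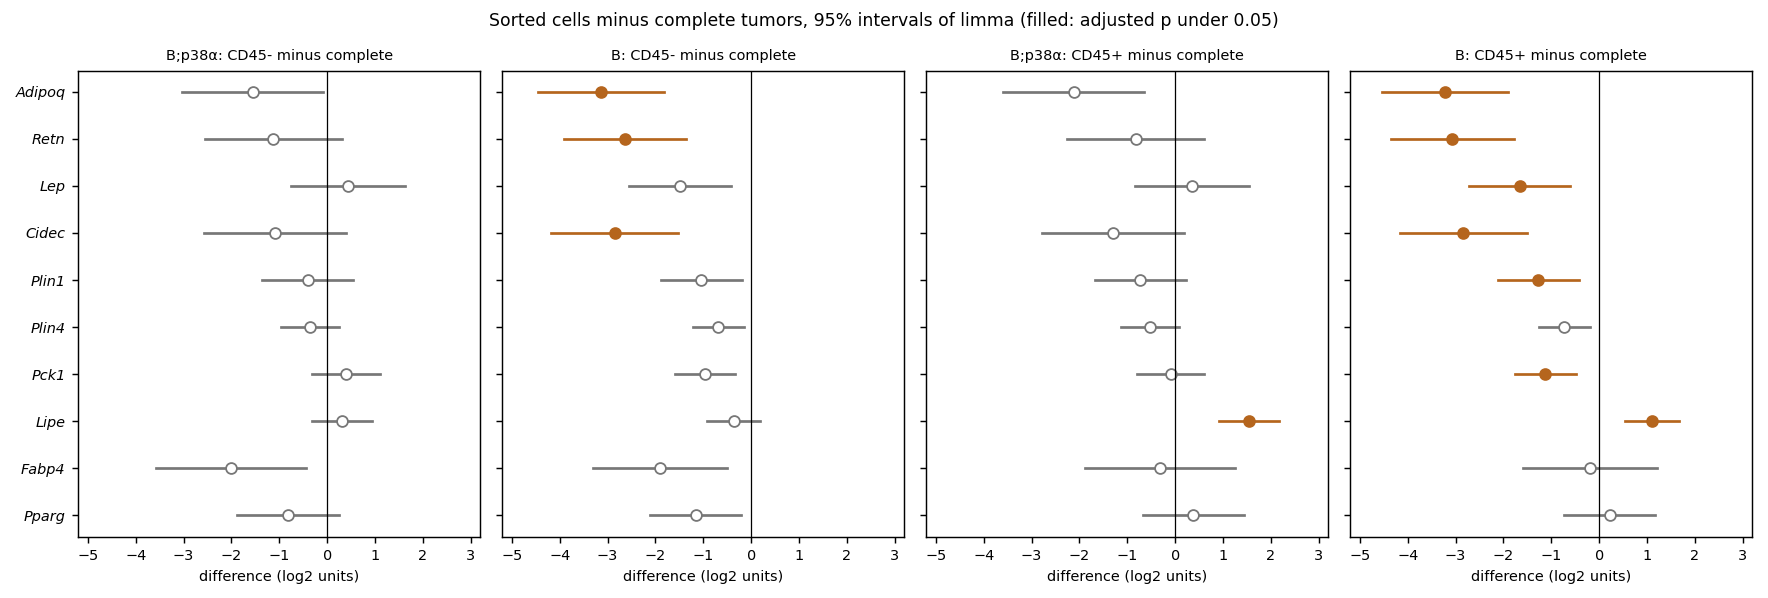
Differences between sorted cells and complete tumors in log2 units for the 10 genes, with 95% intervals from limma, in B;p38α and B samples. Filled orange points have adjusted p under 0.05. In B, Adipoq, Retn and Cidec are lower in both CD45- and CD45+ cells, and Lipe lies right of 0 in CD45+ cells of both genotypes.

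The skeletal muscle list fell with the adipocyte genes on sorting: in B, 15 of 15 muscle genes were lower in CD45+ cells and 15 of 15 in CD45- cells than in complete tumors. Their mean level was 5.34 to 5.89 in the 12 sorted arrays. Sorted and complete samples differ in dissociation as well as in selection for CD45, and these cannot be told apart. Leaving out B CD45- replicate 1, the array of narrow spread, left 0 of the 10 genes lower in B CD45- cells against complete tumors, with adjusted p of 0.075 for Adipoq, 0.0963 for Cidec and 0.131 for Retn, and leaving out complete B replicate 1 gave 0.0513 for Retn. Without complete B replicate 3 the count was 4, Lep included (adjusted p = 0.0403), and without B CD45- replicate 3 it was also 4, with Fabp4 (adjusted p = 0.0269). With only the compared groups in the fit it was 0. In B CD45+ cells the calls of Adipoq, Retn and Cidec held under all 17 alternatives, while without B CD45+ replicate 2 or replicate 3 those were the only 3 of the 10 still lower. Lep and Plin1 also lost their calls when B CD45+ replicate 1, complete B replicate 2 or complete B replicate 4 was left out, and Lep without complete B replicate 1. With only the compared groups in the fit both lost their calls (adjusted p = 0.0767 for Lep and 0.122 for Plin1), and with the replicate block Lep did (0.05001). Without complete B replicate 3 or 5 Plin4 passed as well (adjusted p = 0.0292 and 0.026), for 7 of 10.

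Lipe went the other way. Its level was 7.92, 7.93 and 8.48 in B;p38α CD45+ cells and 8.60, 8.19 and 8.38 in B CD45+ cells. In CD45- cells it was 7.03, 6.69 and 6.91 in B;p38α and 6.30, 6.98 and 7.49 in B samples. Every CD45+ array stood above every CD45- array and every complete tumor. Lipe was the 1 of 10 genes with such a separation, which 5.78% of all genes showed between CD45+ and CD45- cells, 16.4% between CD45+ cells and complete tumors in B;p38α and 12.7% in B. CD45+ cells exceeded CD45- cells by 1.35 log2 units (SE 0.20, 95% interval 0.91 to 1.79, limma adjusted p = 0.00103). Relative to complete tumors, Lipe was higher in CD45+ cells by 1.53 in B;p38α (SE 0.30, limma adjusted p = 0.00318) and by 1.10 in B (SE 0.27, limma adjusted p = 0.00895). In B;p38α CD45+ cells Lipe was the 1 gene of 10 that passed higher, against 6.85% of all genes, and 0 passed lower, against 4.08%. In B;p38α CD45- cells 0 of 10 passed against complete tumors in either direction, where 3.82% of all genes did. Fabp4 differed there by -2.01 (SE 0.74, limma adjusted p = 0.138) and Pparg by -0.82 (limma adjusted p = 0.403), and without complete B;p38α replicate 1 Fabp4 passed (-2.71, adjusted p = 0.0464).

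Between CD45+ and CD45- cells of both genotypes, Lipe and Pparg were the 2 of 10 that passed higher, against 7.79% of all genes, and 0 passed lower, against 4.37%. Pparg was at 7.22, 6.95 and 8.61 in B;p38α CD45+ and 8.14, 8.03 and 8.37 in B CD45+ cells. In CD45- cells Pparg was at 5.39, 6.80 and 6.99 in B;p38α and 6.25, 6.66 and 7.52 in B samples. The difference was 1.29 (SE 0.36, limma adjusted p = 0.0385), with replicate 3 of both CD45- groups inside the CD45+ range. This call was lost under 11 of 21 alternatives. They included leaving out any B CD45+ array, B;p38α CD45+ replicate 1 or 3, B CD45- replicate 1 or 2, or B;p38α CD45- replicate 1 or 2, with adjusted p of 0.0511 to 0.0903. Fabp4 had 9.41, 9.61 and 11.39 in B;p38α CD45+ and 10.72, 11.51 and 11.67 in B CD45+ cells. In CD45- cells Fabp4 had 7.61, 8.44 and 9.27 in B;p38α and 8.18, 9.44 and 11.19 in B samples. Its difference of 1.69 (SE 0.52, limma adjusted p = 0.0585) missed the threshold, and it passed under 6 alternatives. They were leaving out B CD45- replicate 3 (difference 2.09, adjusted p = 0.0126), all 6 groups in 1 fit (0.0375), the replicate block (0.00277), dim genes left out (0.038), array weights (0.021) and a trended variance (0.0468). Adipoq (-0.32, limma adjusted p = 0.398) and Plin1 (-0.28, limma adjusted p = 0.139) had slightly higher means in CD45- cells.

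Marker lists of macrophages and endothelium were also higher in CD45+ than in CD45- cells. The macrophage mean was 10.68, 10.72 and 11.60 in B;p38α CD45+ and 11.10 to 11.16 in B CD45+ arrays, against 5.93, 7.72 and 8.88 in B;p38α CD45- and 9.49, 9.44 and 8.90 in B CD45- arrays. All 11 macrophage genes and 8 of 10 endothelial genes were higher in CD45+ than in CD45- cells by limma adjusted p under 0.05. The endothelial mean was 8.50, 8.61 and 9.55 in B;p38α CD45+ and 9.5 to 9.65 in B CD45+ arrays, against 7.38, 7.74 and 7.97 in B;p38α CD45- and 7.06, 8.06 and 9.07 in B CD45- arrays. Fabp4 and Pparg had the same order of replicates as the endothelial list in both CD45- groups, and their highest B;p38α CD45+ array was that of the highest list means. The macrophage list had their order in B;p38α CD45- arrays, but in B CD45- arrays it ran the opposite way, lowest in replicate 3, where Fabp4 and Pparg were highest. The part of either cell type in the Fabp4 and Pparg values was not tested.

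**Figure D3:**
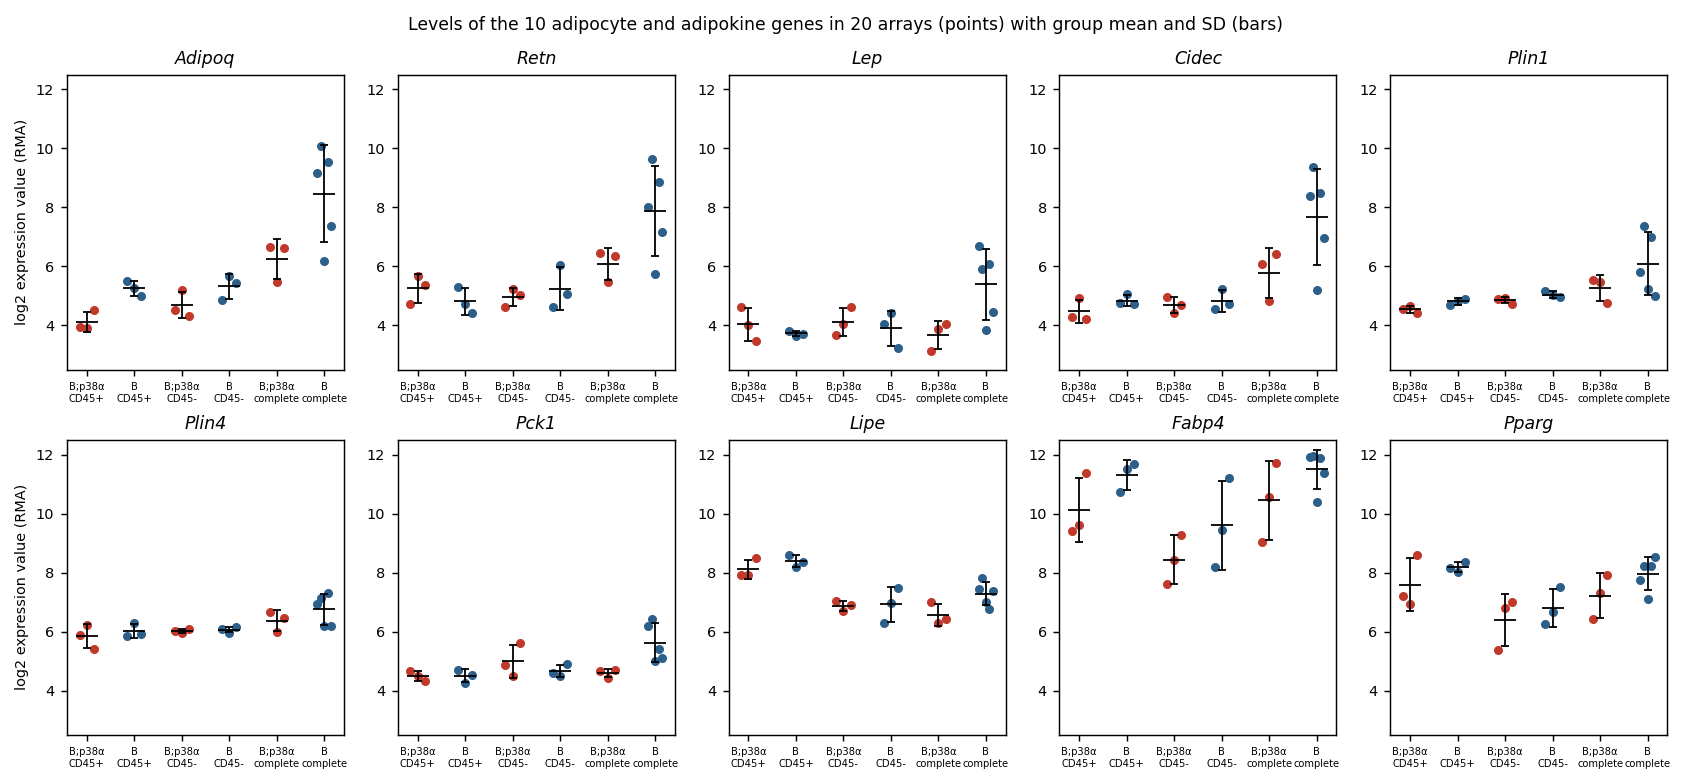
Log2 expression of each of the 10 genes in all 20 arrays (points, red for B;p38α and blue for B), with group mean and SD as bars, for CD45+ cells, CD45- cells and complete tumors. Adipoq, Retn, Lep and Cidec reach their highest levels in complete B tumors, Lipe is highest in CD45+ cells, and Fabp4 and Pparg have their lowest means in CD45- cells.

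Ordered by group mean, Adipoq was highest in complete B tumors (8.47 ± 1.63, SD, n = 5), followed by complete B;p38α tumors (6.24 ± 0.68, n = 3), B CD45- (5.33 ± 0.42), B CD45+ (5.25 ± 0.26), B;p38α CD45- (4.68 ± 0.45) and B;p38α CD45+ cells (4.12 ± 0.34, n = 3 each). B CD45- and B CD45+ cells differed by less than their pooled SD, the other neighbours by more, and the ranges of all neighbours overlapped. Retn, Cidec, Plin1 and Plin4 also had complete B and then complete B;p38α tumors on top, while neighbouring sorted groups of Retn and Cidec differed by less than their pooled SD. Lep in complete B;p38α tumors (3.68 ± 0.48, n = 3) was the lowest of its 6 group means, 1.70 below complete B tumors (5.38 ± 1.19, n = 5). Fabp4 (11.50 ± 0.67, n = 5) was also highest in complete B tumors, with B CD45+ cells next at 11.30 ± 0.51 (n = 3), a gap below their spread. For Pparg and Lipe B CD45+ cells came first, at 8.18 ± 0.17 and 8.39 ± 0.20 (n = 3).

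Within sorted cells the genotype comparison asked whether tumor p38α loss was accompanied by other adipocyte gene levels. In CD45+ cells 0 of the 10 passed, against 0% of all genes. Adipoq had all 3 B;p38α CD45+ arrays below all 3 B CD45+ arrays, with a difference of -1.13 (SE 0.23, 95% interval -1.68 to -0.59, limma adjusted p = 0.392). Such separation in the lower direction was seen in 2 of 10 genes (Adipoq and Plin1) and in 7.35% of all genes. The mean of 3 Y-linked genes was 3.23, 3.01 and 2.75 in B;p38α and 8.67, 4.3 and 5.36 in B CD45+ arrays. Y-linked level and genotype thus went together in these arrays and cannot be fully told apart. With the Y-linked mean as a covariate 0 of the 10 passed in limma, while 250 of all genes did. Lep (0.30, limma adjusted p = 0.672) and Retn (0.44, limma adjusted p = 0.591) had higher means in B;p38α CD45+ cells, with overlapping groups. Fabp4 differed by -1.17 (SE 0.53, limma adjusted p = 0.475) and Pparg by -0.59 (SE 0.41, limma adjusted p = 0.583), and B;p38α CD45+ replicate 3 lay inside the B range for Fabp4 and above it for Pparg. At an unadjusted p under 0.05 limma gave 1110 genes above and 991 below 0 between the genotypes in CD45+ cells.

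In CD45- cells 0 of the 10 passed between genotypes, against 0.0103% of all genes, which is 2 genes. Adipoq differed by -0.64 (SE 0.32, limma adjusted p = 0.675), with B;p38α CD45- replicate 2 inside the B range. Fabp4 differed by -1.16 (SE 0.77, limma adjusted p = 0.68) and Pparg by -0.41 (SE 0.51, limma adjusted p = 0.775). Plin1 was the 1 of 10 whose B;p38α CD45- arrays (4.90, 4.94 and 4.74) all lay below the B CD45- arrays (5.16, 5.02 and 4.94), the nearest pair by less than the rounding shown, as in 5.36% of all genes. The genotype differences were not shown to differ between compartments: 0 of 10 passed either interaction test, against 0% of all genes. For Pck1 the complete tumor difference minus the CD45- difference was -1.36 (SE 0.45, limma adjusted p = 0.472), and for Lep it was -1.92 (SE 0.75, limma adjusted p = 0.474). Against CD45+ cells, the Retn interaction was -2.24 (SE 0.91, limma adjusted p = 0.682) and the Lep interaction -2.01 (SE 0.75, limma adjusted p = 0.682). For Adipoq the interactions were -1.58 against CD45- (limma adjusted p = 0.569) and -1.09 against CD45+ cells (limma adjusted p = 0.805). At an unadjusted p under 0.05 these tests gave 761 genes above and 1128 below 0 against CD45- cells, and 616 above and 792 below 0 against CD45+ cells.

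**Figure D4:**
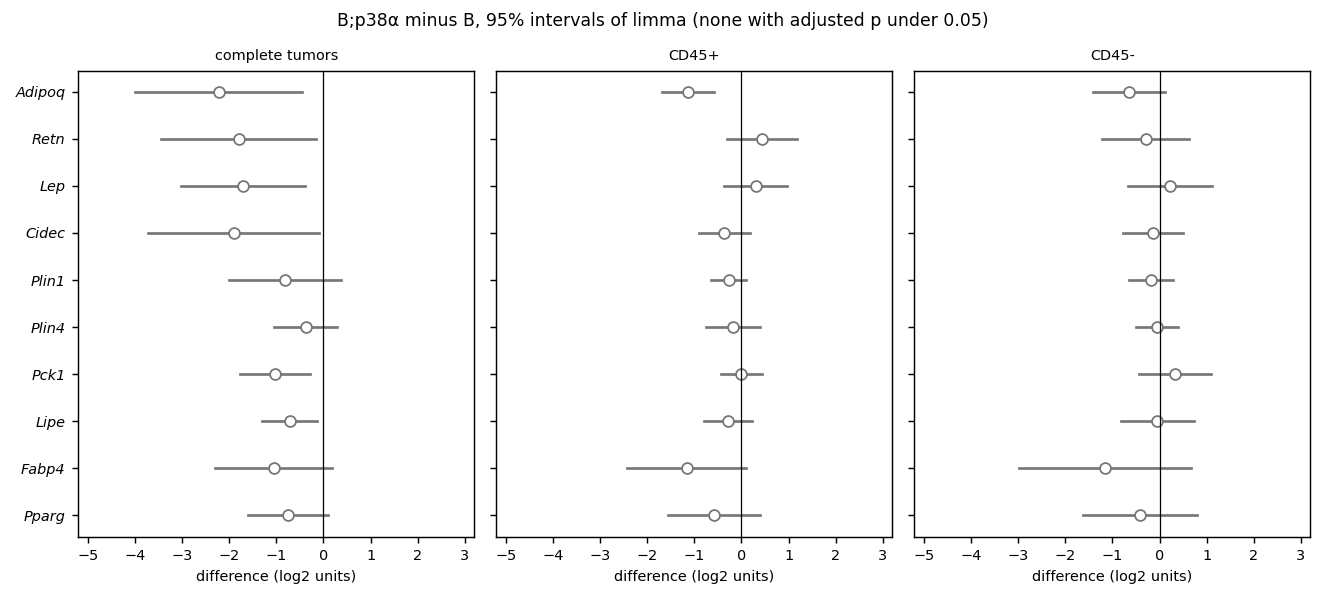
B;p38α minus B differences in log2 units for the 10 genes with 95% intervals from limma, in complete tumors, CD45+ and CD45- cells. All 10 lie left of 0 in complete tumors. Open points mark that none has adjusted p under 0.05.

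The rest of the adipocyte program was read from lists of further genes. Of 17 genes of lipid synthesis and uptake, 0 passed between the genotypes in complete tumors, with 13 below 0 and a median of -0.50. Dgat2 differed by -0.72, Dgat1, the other enzyme of the last step of triglyceride synthesis, by -0.15, and Fasn, the fatty acid synthase, by -0.28 (limma adjusted p = 0.742, 0.936 and 0.915). Car3, a carbonic anhydrase abundant in both fat and skeletal muscle, was the list's 1 gene that fell in all 4 comparisons of sorted cells with complete tumors. In CD45+ cells Car3 was lower by -4.59 in B;p38α (limma adjusted p = 0.00171) and -5.63 in B (limma adjusted p = 9.17e-05), and in CD45- cells by -4.60 and -4.80 (limma adjusted p = 0.0106 and 0.00488). Gpd1 (-0.82, limma adjusted p = 0.0299) and Gpam (-0.59, limma adjusted p = 0.048), which supply and load the glycerol backbone of triglyceride, were also lower in B CD45+ cells than in complete B tumors, and Elovl6, a fatty acid elongase, was higher there (1.18, limma adjusted p = 0.0381). Between CD45+ and CD45- cells, the fatty acid transporter Cd36 was higher (1.88, limma adjusted p = 0.0367) and Fasn lower (-0.61, limma adjusted p = 0.0106).

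Of 12 genes of the lipid droplet and lipolysis, 0 passed between the genotypes in complete tumors, with 11 below 0 and a median of -0.22. Pnpla2, the triglyceride lipase that acts before Lipe, differed by -0.42 there, Mgll, which acts after it, by -0.29, and the Pnpla2 activator Abhd5 by -0.07 (limma adjusted p = 0.864, 0.931 and 0.966). In CD45+ against CD45- cells Pnpla2 rose with Lipe (0.62, limma adjusted p = 0.0294), as did Plin2, the perilipin of most non-fat cells (0.71, limma adjusted p = 0.0145), and Fitm2 fell (-0.43, limma adjusted p = 0.0374). Pnpla2 was also higher in CD45+ cells than in complete tumors, by 1.26 in B;p38α and 0.91 in B (limma adjusted p = 0.0177 and 0.0367). Plin2 passed higher in B;p38α CD45+ cells against complete tumors (0.79, limma adjusted p = 0.0411) and lower in B CD45- cells (-0.82, limma adjusted p = 0.0386), and Fitm2 lower in B CD45+ cells (-0.46, limma adjusted p = 0.0284).

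Of 6 further secreted factors, 0 passed between the genotypes in complete tumors: Rbp4, the retinol carrier, differed by -1.17, Nrg4 by -0.38 and Angptl4, an inhibitor of lipoprotein lipase, by -1.26 (limma adjusted p = 0.716, 0.86 and 0.716). Angptl4 was lower than in complete B tumors in B CD45+ (-1.48, limma adjusted p = 0.004) and B CD45- cells (-1.35, limma adjusted p = 0.0259). Itih5 was lower in CD45+ than in CD45- cells (-0.74, limma adjusted p = 0.00827) and than in complete tumors of B;p38α (-0.73, limma adjusted p = 0.0328) and B (-0.56, limma adjusted p = 0.0475). Of 11 transcription factors of fat cells, 0 passed between the genotypes in complete tumors, with 10 below 0 and a median of -0.37. Cebpa and Cebpb, the C/EBP factors of differentiation, were higher in CD45+ than in CD45- cells by 1.99 and 1.03 (limma adjusted p = 0.000128 and 0.00476), as both were against complete tumors in each genotype. Both are also myeloid factors. Cebpd differed by 0.04 between CD45+ and CD45- cells (limma adjusted p = 0.954). Against complete tumors, Rxra passed higher in both sorted fractions of B;p38α and Tle3 higher in B;p38α CD45+ cells, while Nr1h3 passed lower in B CD45+ cells. The adiponectin receptors Adipor1 (-0.14), Adipor2 (-0.19) and Cdh13 (-0.68) did not pass between the genotypes in complete tumors (limma adjusted p = 0.928, 0.88 and 0.811), and 0 of 4 adipokine receptors passed in any of the 8 comparisons other than the interactions. Of 4 genes of insulin and adrenergic signaling, Insr was higher (0.71, limma adjusted p = 0.0166) and Irs1 lower (-1.06, limma adjusted p = 0.0495) in B CD45+ cells than in complete B tumors, and Pde3b passed in 0 comparisons.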

How the data were processed

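RNA of 20 samples was measured on arrays (WT PLUS amplification, biotin label, per the labels' protocols). The authors deposited log2 values from RMA, a method that corrects background, normalizes and summarizes probes, per the submitters' processing notes. No version of it and no list of the arrays it was run on together is given in the sources used here. RMA equalizes arrays, so only relative levels can be compared. The table held 21244 rows, values of 1.31 to 14.15 and 0 columns of other samples. The platform annotation named 19570 rows. The row of highest mean was kept per symbol, giving 19504 genes, with no filter on dim genes.

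Groups came from the titles. limma 3.58.1 (R 4.3.3) was run with lmFit and eBayes over all genes, with Benjamini-Hochberg adjustment and a threshold of 0.05. Genotype and CD45+ against CD45- used only the compared groups, while comparisons with complete tumors and interactions used all 6 groups in 1 fit. The procedure was tested on simulated data in which each gene had the same spread in all groups. That test does not cover unequal spreads between groups. Figures used matplotlib 3.10.9 (Python 3.11.15).

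All 10 genes were tested in each comparison. Also named were Mapk14 and the 8 genes of highest r to Adipoq over the complete tumors and over all arrays. Of each list of adipocyte genes or paralogs, the first 3 measured genes were named, and genes that passed where 5 or fewer did. Lists of other tissues, where used, were given as means or counts. The members, lists and tests were chosen with earlier results of these data known. Sequences are from RefSeq tables, and no genome was used. Alternatives tried were other sets of groups in the fit, the replicate block, no dim genes, repeated quantile normalization, array weights, a trended robust variance, a Y-linked covariate, every named row, and each array left out. Leaving out both arrays of narrowest spread was chosen after seeing the data. Array number limits the precision. Same-numbered samples are not stated to share an animal.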

Additional observations from a re-analysis of the deposited data

How the results depend on the processing

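Between 15 and 23 alternatives were fitted per comparison. Of 100 differences (10 genes in 10 comparisons), 18 changed sign under at least 1 alternative, none above 0.413 log2 units in size. With 1 array left out, Pparg between genotypes in CD45- cells ranged from -0.711 to 0.09, and Fabp4 in B CD45+ cells against complete tumors from -0.48 to 0.092, the highest without B CD45+ replicate 1. With array weights that Fabp4 difference was 0.164. Lipe kept its calls except in B CD45+ cells against complete tumors under the replicate block (adjusted p = 0.0581). With array weights 4 of the 10 genes were lower in B;p38α than in B CD45+ cells, where 2613 of all 19504 genes were lower and 2690 higher. Apart from genes removed by the dim gene filter, the cause of each shift below was not tested.

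Counts of the 10 genes changed as follows. In B CD45- cells against complete tumors 3 were lower. There were 0 with only the compared groups, with array weights or without both narrowest arrays, 1 with the replicate block, and 0 to 4 with 1 array left out. In B CD45+ cells against complete tumors 6 were lower. There were 4 with only the compared groups, 5 with the replicate block and 3 without both narrowest arrays. There were 7 with array weights and 3 to 7 with 1 array left out. Without dim genes 4 of the 7 left in the fit were lower, Plin4 included, as that filter removed Lep, Plin1 and Pck1. With the replicate block 0 were higher. In B;p38α CD45+ cells 1 was lower with only the compared groups, without dim genes or with array weights. In B;p38α CD45- cells 1 was lower with array weights and 0 to 1 with 1 array left out. Without dim genes, which left 7 of the 10 in the fit, the median was -1.08. Between CD45+ and CD45- cells 2 were higher. There were 3, Fabp4 included, with all 6 groups, the replicate block, dim genes left out, array weights or the trended variance. There was 1 with the Y-linked covariate or without both narrowest arrays and 1 to 3 with 1 array left out, and with array weights 1 was lower.

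Counts over all genes moved more. Between complete B;p38α and B tumors 0 genes passed, 27 with the replicate block and 0 to 49 with 1 array left out. In CD45+ cells 0 passed between genotypes, 2 with all 6 groups, 7 without dim genes, 5303 with array weights, 5 with the trended variance, 250 with the Y-linked covariate and 0 to 30 with 1 array left out. In CD45- cells 2 passed, 0 with all 6 groups, 4 with array weights, 1 with the Y-linked covariate and 0 to 4 with 1 array left out. CD45+ against CD45- cells gave 2372, and 4275 with array weights. B CD45- cells against complete tumors gave 933, 103 with only the compared groups, 418 with the replicate block, 303 with array weights, 84 without both narrowest arrays and 102 to 1698 with 1 array left out. B;p38α CD45- cells gave 745, 0 with only the compared groups, 1178 without dim genes, 2089 with array weights and 38 to 1189 with 1 array left out. B CD45+ cells gave 3333, 7372 with array weights and 1839 to 3186 with 1 array left out, and B;p38α CD45+ cells 2132, 4470 with array weights and 1070 to 2040. The interactions gave 0: against CD45- cells 27 with the replicate block and 0 to 37 with 1 array left out, against CD45+ cells 14 with the replicate block, 761 with array weights and 0 to 16 with 1 array left out.

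Deviations of same-numbered arrays from their group means correlated between -0.568 and 0.363. Arrays of different numbers were not compared in this way, so these values cannot show whether same-numbered samples share animals. Lep, Plin1 and Pck1 had means under the 30th percentile of all genes, where arrays resolve differences least.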

Other observations

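Of 9 genes of brown and beige fat, 0 passed between complete B;p38α and B tumors, and 6 of 9 lay below 0 with a median of -0.23: Ucp1, which uncouples respiration to make heat, differed by 0.16, Cidea by -0.09 and Dio2, which activates thyroid hormone, by -0.23 (limma adjusted p = 0.937, 0.969 and 0.965). Cox8b, a respiratory chain subunit of brown fat and skeletal muscle, was lower than in complete B tumors in B CD45+ (-1.91, limma adjusted p = 0.00429) and B CD45- cells (-2.16, limma adjusted p = 0.011), and Cox7a1, of the same tissues, was lower in B CD45+ cells (-1.45, limma adjusted p = 0.0237). The skeletal muscle list fell in the same comparisons, and its part in these values was not tested. Of 7 genes of adipocyte progenitors, 0 passed between complete B;p38α and B tumors, among them Pdgfrb (-0.62), Dlk1 (-1.23) and Cd34 (-0.14), with limma adjusted p of 0.816, 0.707 and 0.952. Dpp4 was higher in CD45+ than in CD45- cells (2.03, limma adjusted p = 0.00245), and in B CD45+ cells against complete tumors Icam1 was higher (0.90, limma adjusted p = 0.0402) and Pi16 lower (-1.42, limma adjusted p = 0.0344).

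Of 14 paralogs of the 10 genes, 0 passed between complete B;p38α and B tumors, and 12 of 14 lay below 0 with a median of -0.20. Retnla, a resistin-like gene of alternatively activated macrophages, differed by -2.69 there, Retnlb by -0.01 and the fatty acid carrier Fabp5 by -0.29 (limma adjusted p = 0.724, 0.996 and 0.917). Retnlg, the resistin-like gene of neutrophils, was higher in CD45+ than in CD45- cells (2.21, limma adjusted p = 0.047), whereas Retn itself differed by less than its spread between them. The adiponectin relative C1qtnf3 (-1.06, limma adjusted p = 0.0216) and Ppara (-0.60, limma adjusted p = 0.0469) were lower in CD45+ than in CD45- cells. In B CD45+ cells against complete tumors, C1qtnf3 (-1.55, limma adjusted p = 0.0477) and Plin3 (-0.55, limma adjusted p = 0.0475) were lower.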
